A study of Mus musculus with 4 samples.

Results

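The 41 genes described here are markers of macrophages, read across 4 dishes of mouse synovial cells. They were chosen by name, and the probe sets (groups of array probes for 1 transcript) whose annotation gives exactly 1 of these genes were taken. Such a probe set existed for 40 of the 41, of 12393 genes named on the array. Lyn, a Src-family kinase of blood cells, had none and is not analysed here. Where a gene had several, the brightest by mean log2 signal was used.

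The cells were cultured as synovial fibroblasts from the knees of healthy male DBA/1J mice aged 8 to 12 weeks and had been passaged 3 to 4 times. All dishes stood in RPMI1640 with 1% serum and were collected at 6 h. The first dish received IL-1β at 5 ng/ml with 1 µM indomethacin and 1 µM iloprost (the iloprost dish). The others received IL-1β with indomethacin (the indomethacin dish), IL-1β alone (the IL-1β dish) or vehicle. IL-1β is a cytokine of joint inflammation, indomethacin inhibits the cyclooxygenase enzymes of prostanoid synthesis, and iloprost mimics prostacyclin while being more stable. How many mice gave the cells is not stated in the labels, nor whether leukocytes were removed. The labels also mention iloprost given with IL-1β alone, which is not analysed here. Each treatment has 1 array, so no value has an error between dishes and no difference below has a test or a p-value.

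The synovial lining of a joint holds macrophages beside fibroblasts. Macrophages are phagocytes that take up particles through Fc, scavenger and lectin receptors, digest them with lysosomal enzymes such as lysozyme, and kill microbes with superoxide made by the NADPH oxidase. The transcription factor PU.1, encoded by Spi1, drives their gene programme. Prostacyclin acts on a receptor that raises cAMP, and cAMP is known to dampen several inflammatory functions of macrophages.

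Transcripts of macrophage markers were present in every dish. Of the 40 members with a probe set, 37 had a signal above 37.6 on all 4 arrays. That value, the 50th percentile of all signals, served as a floor. The other 3 were at the floor on every array. They were the haemoglobin scavenger receptor Cd163, with signals from 0.3 to 6.4, the monocyte chemokine receptor Ccr2, from 8.6 to 18.8, and the sialic acid lectin Siglec1, from 3.9 to 11.2. With values under the floor set to it, the summed signal of the 40 members was 45339 in the iloprost dish, 52778 in the indomethacin dish, 61402 in the IL-1β dish and 53081 with vehicle. All 24 fibroblast markers with a probe set were also above the floor on every array. Their summed signal was 59172 in the iloprost dish, 56431 in the indomethacin dish, 62500 in the IL-1β dish and 56381 with vehicle. Markers of both cell types were therefore measured in cultures labelled as fibroblasts. The sums are of signals as deposited, so differences in overall brightness between the arrays are part of them. The member sum also counts Lyz1, whose value is uncertain, as described below.

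Most markers of other blood and vessel cells were at the floor. None of the 11 markers of T, B and NK lymphocytes with a probe set was above the floor on any array. Of 8 mast cell markers 7 were at the floor on every array, as were 7 of 10 neutrophil markers, 11 of 12 endothelial markers and 7 of 8 dendritic cell markers. The 3 remaining neutrophil markers passed the floor on some arrays. Camp, an antimicrobial peptide, had 110.2 in the iloprost dish, 56.4 in the indomethacin dish, 90.7 in the IL-1β dish and 30.7 with vehicle. S100a8, a calcium-binding protein, had 47.9 in the iloprost dish, 18.6 in the indomethacin dish, 37.5 in the IL-1β dish and 12.7 with vehicle. Csf3r, the G-CSF receptor, had 27.4 in the iloprost dish, 62.3 in the indomethacin dish, 53.5 in the IL-1β dish and 40.3 with vehicle. Camp and S100a8 were highest in the iloprost dish, and their part in the members' ratios was not tested. The 1 dendritic cell marker above the floor was Cd207, at 475.2 in the iloprost dish, 41 in the indomethacin dish, 66.9 in the IL-1β dish and 39.7 with vehicle. The part of Cd207-bearing cells was not tested either. Ptprc, Cd48, Cd52, Cd53 and Coro1a, which all leukocytes can express, were therefore read here beside lymphocyte markers at the floor.

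Ratios below are log2 ratios relative to the median gene, because the arrays differed in overall brightness. The median gene itself differed, before centring, by 0.23 between the IL-1β dish and vehicle and by -0.15 between the indomethacin and IL-1β dishes. It differed by 0.01 between the iloprost and indomethacin dishes and by -0.14 between the iloprost and IL-1β dishes. Between probe sets of the same gene, ratios had an SD of 0.20 to 0.22 over the 6 pairs of dishes. This SD measures noise within an array and leaves out differences between dishes. An even shift is described by the median ratio of the 37 members. A member is called gene-specific where its ratio lies over 1.5-fold (0.58 on the log2 scale) from that median, which does not depend on how the arrays are scaled to each other.

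With IL-1β the macrophage genes as a group lay close to the median gene. Their median ratio against vehicle was -0.08, with quartiles of -0.18 and 0.14, where all 6431 measured genes had a median of -0.02 and quartiles of -0.20 and 0.16. Of the 37, 24 lay below the median gene, as did 52.8% of all genes. None was 2-fold higher, where 1.35% of all genes were, and none was 2-fold lower, where 0.498% were. The 3 gene-specific members lay above the others and were cell surface receptors, Fcgr3, Clec4n and Clec7a. They are 8.11% of the members, close to the 7.68% of all genes over 1.5-fold from the same value. On the scale as deposited the member median was 0.14, so its sign depends on the scaling.

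Indomethacin added to IL-1β gave the most uniform picture. The member median was -0.06, with quartiles of -0.13 and -0.02, and all 37 members lay within 1.5-fold of it, where 3.89% of all genes did not. The interquartile range of the members was 0.11, against 0.27 over all 6501 measured genes. Below the median gene were 29 of 37 members, where 49.5% of all genes were. No member was 2-fold lower or higher, where 0.508% of all genes were lower and 0.261% higher. Scaled on the added control transcripts, which moves all genes alike, the member median was 0.01.

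Iloprost added to IL-1β and indomethacin went with a lower member median, but the members did not shift evenly. Their interquartile range was 0.62, against 0.43 over all measured genes. The member median was -0.38, with quartiles of -0.74 and -0.12, against a median of 0.03 and quartiles of -0.19 and 0.24 over all 6414 measured genes. Below the median gene were 32 of 37 members, where 46.2% of all genes were. Of the members 6 reached a 2-fold lower signal, where 3.12% of all genes did, and 0 reached a 2-fold higher one, where 1.56% did. At 1.5-fold, 12 members were lower, where 7.06% of all genes were, and 2 were higher, where 6.97% were. Gene-specific were 10 of the 37, or 27.0%. Of all genes 14.0% lay over 1.5-fold from the median gene and 32.4% over 1.5-fold from the member median of -0.38, so the share of 27.0% lies between the backgrounds. Below the other members were Cd48, Fcgr2b, Fcgr1, Marco, Clec7a, Ncf1 and Lst1, and above them Lgals3, Clec4d and Fcgr3. The nearest members outside these were Adgre1 at -0.77 and Laptm5 at 0.05. Scaled on the control transcripts, the member median was -0.19 and 3 members were 2-fold lower. That scaling moves every gene by the same amount, so the distance of the members from all genes stays as it was. In bulk RNA, fewer macrophages in a dish and less RNA per macrophage cannot be told apart.

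**Figure D1:**
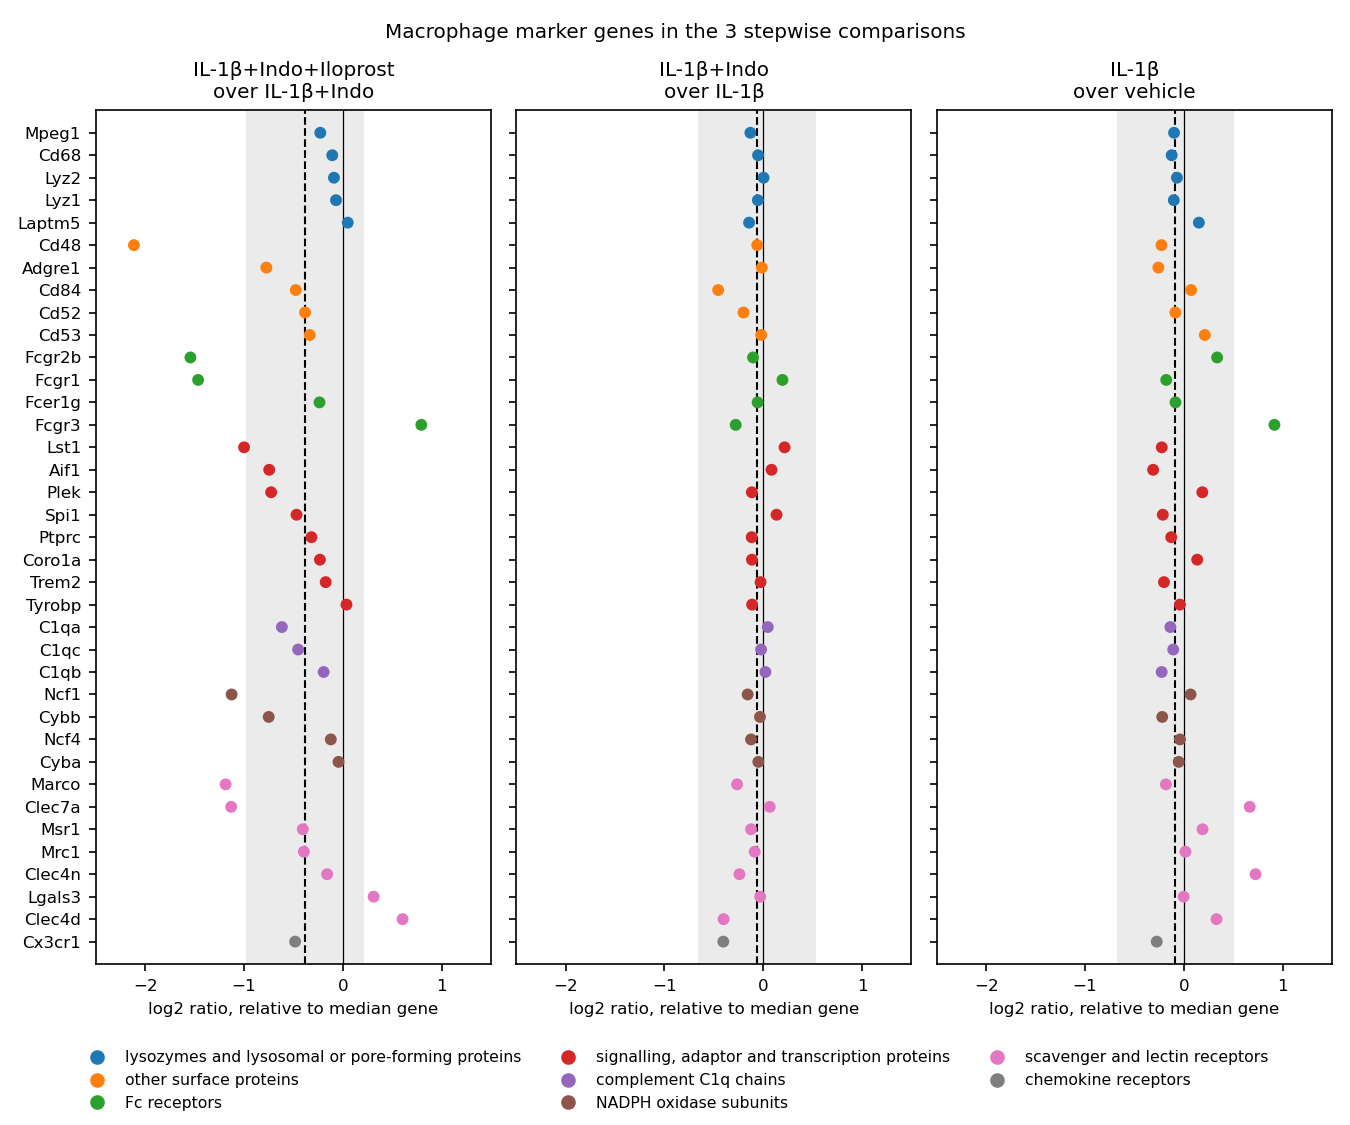
Log2 ratio relative to the median gene (x axis) of the 37 macrophage marker genes above the floor on all arrays (rows, coloured by role), in 3 comparisons. Indo is indomethacin, the dashed line is the member median and the grey band is 1.5-fold to either side of it. With iloprost added 10 genes lie outside the band, with indomethacin added 0 and with IL-1β against vehicle 3.

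The Fc receptors bind antibody-coated particles, and with iloprost their ratios pointed both ways. Fcgr2b encodes the inhibitory receptor FcγRIIB. Its signal was 709.6 in the iloprost dish, against 2054 in the indomethacin dish, 2444 in the IL-1β dish and 1655 with vehicle. The iloprost array was the lowest of the 4, and the ratio to the indomethacin dish was -1.54. Fcgr1 encodes the high-affinity activating receptor FcγRI. Its signals were 269 in the iloprost dish, 737.9 in the indomethacin dish, 714.5 in the IL-1β dish and 691.2 with vehicle. The other dishes were close to each other, and the ratio of the iloprost dish to the indomethacin dish was -1.46. Fcgr3, the low-affinity activating receptor FcγRIII, was higher instead. Its signals were 479.9 in the iloprost dish, 275 in the indomethacin dish, 369.6 in the IL-1β dish and 167.4 with vehicle, so iloprost was highest and vehicle lowest. Its ratio was 0.79 for iloprost added and 0.92 for IL-1β against vehicle, the highest of all members in both comparisons. Fcer1g, the signalling chain that Fcgr1 and Fcgr3 share, stayed near the member median, with signals of 1793 in the iloprost dish, 2099.6 in the indomethacin dish, 2420.0 in the IL-1β dish and 2194 with vehicle and a ratio of -0.24 with iloprost added. The Fcγ receptor genes are related copies, and probes shared between them would pull their ratios together.

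The promoter windows of Cd48, Fcgr3 and Fcgr2b are shown because these members lay furthest from the member median with iloprost added, by -1.73, 1.18 and -1.16. Each runs from 250 bases before to 50 after the transcript start, 5′ to 3′ on the strand of the gene, from RefSeq on GRCm38.p6. Capitals mark matches to the motifs searched. The Cd48 window is chr1:171681742-171682041 (+ strand), that of Fcgr3 chr1:171059354-171059653 (- strand), the first of 2 listed, and that of Fcgr2b chr1:170976022-170976321 (- strand).
Cd48: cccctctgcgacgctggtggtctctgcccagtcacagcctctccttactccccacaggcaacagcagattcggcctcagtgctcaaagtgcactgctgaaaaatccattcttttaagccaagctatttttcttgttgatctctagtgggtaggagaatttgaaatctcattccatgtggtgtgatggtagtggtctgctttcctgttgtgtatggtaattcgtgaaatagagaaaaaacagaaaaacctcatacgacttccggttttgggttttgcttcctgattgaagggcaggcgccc
Fcgr3: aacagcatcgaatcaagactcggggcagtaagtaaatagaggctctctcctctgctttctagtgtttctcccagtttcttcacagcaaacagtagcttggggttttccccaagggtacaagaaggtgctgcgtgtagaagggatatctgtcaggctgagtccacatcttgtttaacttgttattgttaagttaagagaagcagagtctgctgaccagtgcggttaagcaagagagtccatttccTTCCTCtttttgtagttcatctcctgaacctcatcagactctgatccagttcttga
Fcgr2b: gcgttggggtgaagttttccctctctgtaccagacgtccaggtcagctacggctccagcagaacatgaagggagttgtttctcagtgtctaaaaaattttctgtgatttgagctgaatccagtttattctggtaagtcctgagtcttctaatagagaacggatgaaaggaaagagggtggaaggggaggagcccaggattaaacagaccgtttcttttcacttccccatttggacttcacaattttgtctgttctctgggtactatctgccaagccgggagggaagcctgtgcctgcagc

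The motifs were the PU.1 core GAGGAA, the GAS element of STAT factors TTCNNNGAA, an interferon response element-like pair of GAAA runs with 2 bases of any kind between them, and the core TGACG of the cAMP response element, each on both strands. Matches of different motifs could overlap. The Fcgr3 window held 1 match, the PU.1 core on the opposite strand at bases 245 to 250 of the window, and the others held 0. Of the 37 members above the floor, 28 had a window. The PU.1 core was in 17 of these, or 60.7%, and in 31.3% of all 27025 genes with a window. The interferon response element-like motif was in 4 of the 28, or 14.3%, and in 3.99% of all genes. The GAS element was in 2 members (7.14%) and 9.55% of all genes, and the cAMP element core in 6 members (21.4%) and 23.0% of all genes. A match is a run of letters and not a shown binding site.

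**Figure D2:**
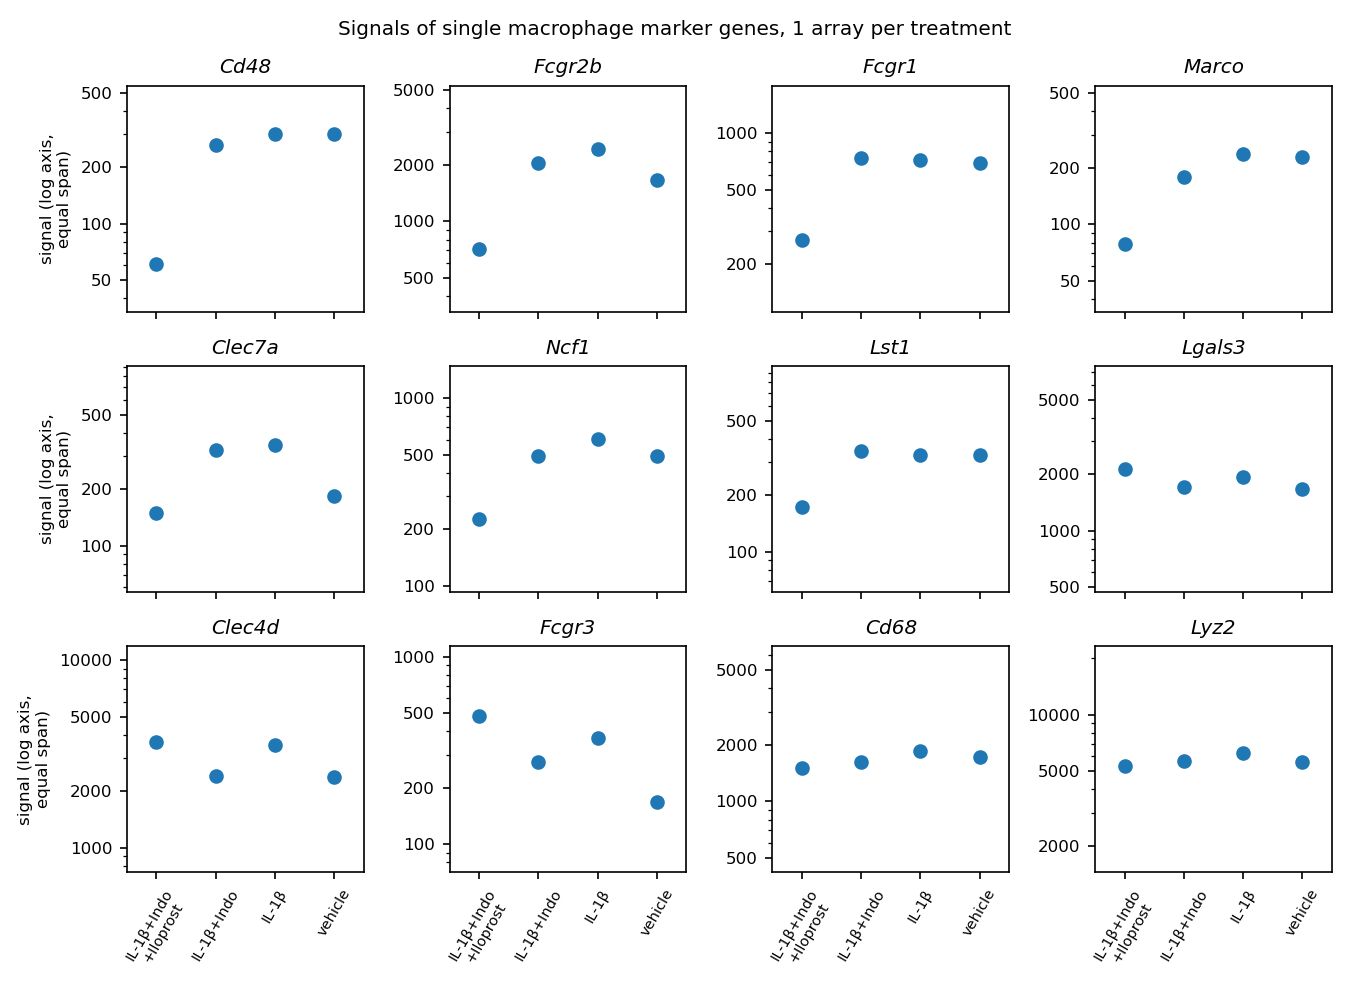
Signal as deposited (y axis, log scale of equal span in each panel) of the 10 members over 1.5-fold from the member median with iloprost added, and of Cd68 and Lyz2, on the 4 arrays. Each point is 1 array, and Indo is indomethacin. Cd48, Fcgr2b, Fcgr1, Marco, Ncf1 and Lst1 are clearly lowest in the iloprost dish, Clec7a is low there and with vehicle, and Fcgr3 is highest in the iloprost dish.

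The C-type lectins of myeloid cells differed from gene to gene. Clec7a encodes Dectin-1, a receptor for fungal β-glucan. Its signals were 149.5 in the iloprost dish, 325.2 in the indomethacin dish, 344.3 in the IL-1β dish and 185.5 with vehicle. The IL-1β ratio against vehicle was 0.67 and the iloprost ratio against the indomethacin dish -1.13, so the iloprost dish and the vehicle dish were both low. Clec4n encodes Dectin-2, a receptor for fungal mannans. It had 1102 in the iloprost dish, 1223 in the indomethacin dish, 1601.5 in the IL-1β dish and 828.2 with vehicle, with ratios of 0.73 for IL-1β and -0.16 for iloprost added. The 3 dishes with IL-1β all stood above vehicle for this gene. Clec4d, a related lectin, had 3675 in the iloprost dish, 2402 in the indomethacin dish, 3515 in the IL-1β dish and 2389.7 with vehicle. Its signal was high in the iloprost and IL-1β dishes and low in the other pair, with ratios of 0.61 for iloprost added and -0.40 for indomethacin added. The only Clec4d probe set carries a manufacturer's suffix for probes that can also match other sequences, so this value is uncertain.

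Scavenger receptors take up modified lipoproteins and microbes. Marco had signals of 78.7 in the iloprost dish, 178 in the indomethacin dish, 237 in the IL-1β dish and 229.8 with vehicle. The iloprost array was lowest and close to the floor, and the ratio was -1.19. The scavenger receptor Msr1 and the mannose receptor Mrc1 lay near the member median, at -0.41 and -0.39 for iloprost added. Other probe sets of Msr1 were between -0.73 and -0.45. For IL-1β against vehicle the Msr1 probe set used was at 0.19 and the others between 0.25 and 0.57. The highest of these would pass the gene-specific cut, so that call depends on the probe set. Msr1 had 1082 in the iloprost dish, 1424 in the indomethacin dish, 1719 in the IL-1β dish and 1289 with vehicle. Mrc1 had 499.2 in the iloprost dish, 652.2 in the indomethacin dish, 767.3 in the IL-1β dish and 648.9 with vehicle, so both were lowest in the iloprost dish. Lgals3 encodes galectin-3, a sugar-binding protein that fibroblasts also make. It had 2142 in the iloprost dish, 1715 in the indomethacin dish, 1942 in the IL-1β dish and 1662 with vehicle, a ratio of 0.31 for iloprost added.

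The NADPH oxidase subunits separated by their ratios. Ncf1 encodes the cytosolic organiser p47phox. Its signals were 226.2 in the iloprost dish, 490.5 in the indomethacin dish, 606.3 in the IL-1β dish and 494.5 with vehicle, and its iloprost ratio was -1.12. Cybb encodes the catalytic subunit gp91phox. It had 888.7 in the iloprost dish, against 1485.5 in the indomethacin dish, 1684 in the IL-1β dish and 1676 with vehicle, with a ratio of -0.75. The iloprost array was the lowest for both genes. Ncf4, the cytosolic subunit p40phox, and Cyba, the membrane subunit p22phox that many other cells also express, were at -0.12 and -0.04. Ncf4 had 462.9 in the iloprost dish, 500.5 in the indomethacin dish, 604.1 in the IL-1β dish and 530.7 with vehicle. Cyba had 1789 in the iloprost dish, 1832 in the indomethacin dish, 2101.5 in the IL-1β dish and 1863 with vehicle. The iloprost and indomethacin dishes were close for this pair. In the other stepwise comparisons these 4 genes stayed between -0.22 and 0.07.

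With iloprost added, the lysozyme and lysosomal genes lay closest to the median gene of all roles, with a median ratio of -0.09. Lyz2, the lysozyme of macrophages, had signals of 5342 in the iloprost dish, 5651 in the indomethacin dish, 6247 in the IL-1β dish and 5606 with vehicle, with an iloprost ratio of -0.09. Cd68, a glycoprotein of macrophage lysosomes, had 1512 in the iloprost dish, 1618 in the indomethacin dish, 1859 in the IL-1β dish and 1731 with vehicle, with a ratio of -0.11. Mpeg1, which encodes the pore-forming perforin-2, was at -0.23, with signals between 1069.6 and 1509.6 over the 4 dishes. Laptm5, a lysosomal membrane protein of blood cells, was at 0.05, with signals between 1369 and 1779. With the probe sets used, the 5 genes of this role lay between -0.14 and 0.15 in the IL-1β and indomethacin comparisons.

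Lyz1 is a close copy of Lyz2, and its value is uncertain. The probe set used had 6117 in the iloprost dish, 6378.5 in the indomethacin dish, 7339.9 in the IL-1β dish and 6733 with vehicle. A probe set of Lyz1 built on its RefSeq transcript was at the floor on every array, with 11 in the iloprost dish, 10.6 in the indomethacin dish, 23.3 in the IL-1β dish and 9.6 with vehicle. The pair of bright probe sets carry the manufacturer's suffix for probes that also match other sequences, so they cannot be taken as Lyz1 alone.

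The C1q chains, which start the classical complement pathway, are secreted by macrophages. C1qa had 1522 in the iloprost dish, 2319.5 in the indomethacin dish, 2489.6 in the IL-1β dish and 2339.8 with vehicle, with an iloprost ratio of -0.62. C1qc had 1381 in the iloprost dish, 1878 in the indomethacin dish, 2112 in the IL-1β dish and 1946 with vehicle, a ratio of -0.45. C1qb had 2249 in the iloprost dish, 2557 in the indomethacin dish, 2789.7 in the IL-1β dish and 2786 with vehicle, a ratio of -0.19. All 3 were lowest in the iloprost dish. In the IL-1β and indomethacin comparisons the probe sets used lay between -0.22 and 0.05. The other probe sets of C1qb were at 0.59 and 0.09 for IL-1β, and at -0.45 and -0.15 for indomethacin added. With iloprost added they were at -0.40 and -0.36, nearer to C1qc, so the C1qb ratio of -0.19 depends on the probe set used.

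Among signalling, adaptor and transcription proteins, Lst1, a membrane adaptor of myeloid cells, was the gene-specific one. It had 173.2 in the iloprost dish, 344.2 in the indomethacin dish, 328.4 in the IL-1β dish and 327.8 with vehicle, with a ratio of -0.999 that falls just short of the 2-fold call. Aif1, the calcium-binding protein Iba1, had 241.7 in the iloprost dish, 402.7 in the indomethacin dish, 421 in the IL-1β dish and 446.6 with vehicle, a ratio of -0.74. Plek, the protein kinase C substrate pleckstrin, had 948.9 in the iloprost dish, 1559 in the indomethacin dish, 1871.5 in the IL-1β dish and 1406 with vehicle, a ratio of -0.73. All 3 were lowest in the iloprost dish. Spi1 itself had 582.4 in the iloprost dish, 801 in the indomethacin dish, 808.4 in the IL-1β dish and 801 with vehicle, a ratio of -0.47, near the member median. Ptprc, which encodes the phosphatase CD45 of all leukocytes, had 952.7 in the iloprost dish, 1180.3 in the indomethacin dish, 1418 in the IL-1β dish and 1325 with vehicle, a ratio of -0.32. The actin regulator Coro1a was at -0.23, with signals between 688.2 and 963.4 over the 4 dishes, and the lipid receptor Trem2 at -0.17, with signals between 683 and 864.4. The Trem2 value is uncertain, because the probe set used carries a manufacturer's suffix for shared probes. The only Aif1 probe set carries such a suffix too. Another Trem2 probe set, built on the same RefSeq transcript, was at the floor on every array, with signals from 13.9 to 19.4. Tyrobp, the adaptor DAP12 through which Trem2 signals, was at 0.04, with 1905 in the iloprost dish, 1846 in the indomethacin dish, 2211 in the IL-1β dish and 1943 with vehicle.

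Of the remaining surface proteins, Cd48 had the lowest iloprost ratio of all members, -2.11. Cd48 encodes a ligand of the lymphocyte receptor CD244. Its signals were 60.7 in the iloprost dish, 261.2 in the indomethacin dish, 301.9 in the IL-1β dish and 302 with vehicle. The signal in the iloprost dish was close to the floor of 37.6, and the other dishes were close to each other. Adgre1 encodes an adhesion receptor that is the standard surface marker of mouse macrophages. It had 1074 in the iloprost dish, 1825 in the indomethacin dish, 2042 in the IL-1β dish and 2088 with vehicle, a ratio of -0.77. Cd84, Cd52 and Cd53 were at -0.48, -0.38 and -0.33. Cd84 had 66.1 in the iloprost dish, 91.4 in the indomethacin dish, 138.9 in the IL-1β dish and 112.9 with vehicle, so it was dim in every dish. Cd52 had 492.9 in the iloprost dish, 638.6 in the indomethacin dish, 812.6 in the IL-1β dish and 737.5 with vehicle. Cd53 had 1185 in the iloprost dish, 1486 in the indomethacin dish, 1669.8 in the IL-1β dish and 1232 with vehicle. All 3 were lowest in the iloprost dish and lay near the member median. Cx3cr1, the fractalkine receptor that marks a lining population of synovial macrophages in mice, had 118.6 in the iloprost dish, 164.7 in the indomethacin dish, 241.5 in the IL-1β dish and 249.7 with vehicle. Its ratios were -0.48 for iloprost added and -0.40 for indomethacin added.

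Several probe sets of 1 gene give a check within each array. For 10 members 2 or more probe sets were above the floor on all arrays. With iloprost added, the probe sets of 8 of these genes lay within 1.5-fold of each other. The 4 probe sets of Fcgr2b were between -1.55 and -1.52, the pair for Ncf1 at -1.12 and -1.06, and the 3 of Plek between -0.89 and -0.72. The exceptions were Cx3cr1, at -1.10 and -0.48, and Laptm5, between -0.09 and 0.63. For IL-1β against vehicle, Clec4n was at 0.73 and 0.82, and C1qb was the exception, between -0.22 and 0.59. The other gene-specific members, Fcgr3, Clec7a, Cd48, Marco, Fcgr1, Lst1, Clec4d and Lgals3, had 1 probe set each above the floor and no such check. The check is a weak one, because probe sets of a gene can be built on the same sequence. This held for the Plek probe sets, the Ncf1 pair, the Cx3cr1 pair and most of those of Fcgr2b. The probe sets used for Fcgr2b and Clec4n carry a manufacturer's suffix for shared probes, while others of these genes do not.

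**Figure D3:**
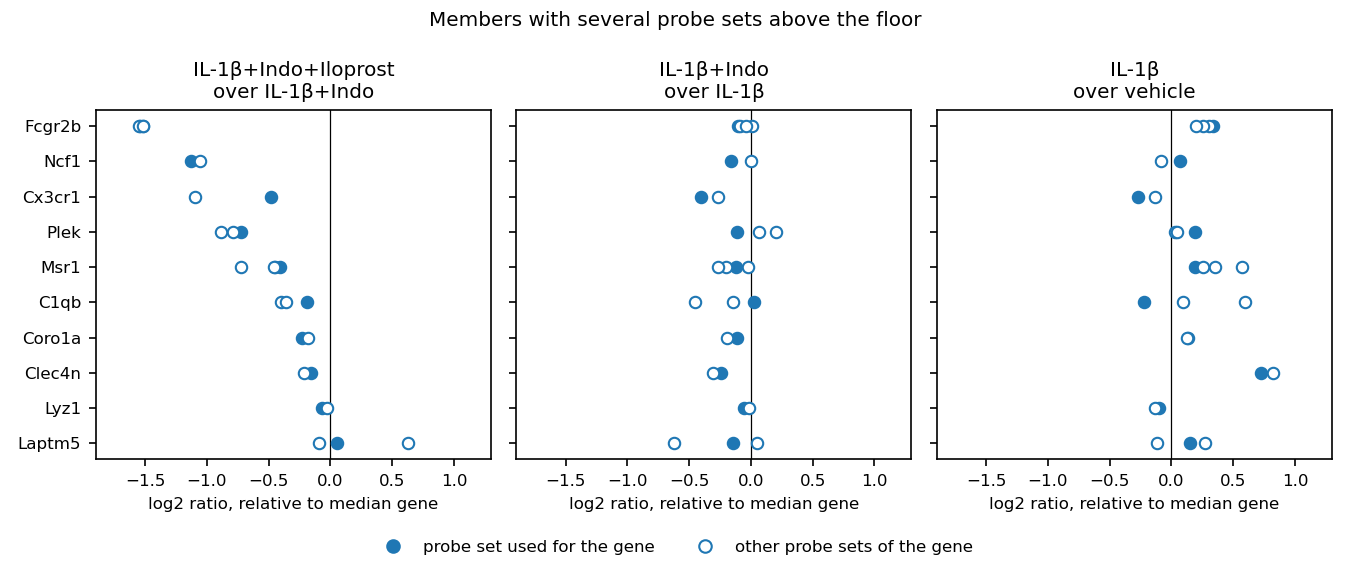
Log2 ratio relative to the median gene (x axis) of every probe set above the floor on all arrays, for the 10 members (rows) with 2 or more, in 3 comparisons. Indo is indomethacin, filled points are the probe sets used and open points the others. The 4 probe sets of Fcgr2b lie between -1.55 and -1.52 with iloprost added, and those of Cx3cr1 and Laptm5 lie apart.

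The iloprost dish can also be set against the others. These comparisons share the iloprost array, so they do not check each other. Against the IL-1β dish the member median was -0.43, with 6 of 37 members 2-fold lower, where 2.31% of all genes were, and 0 higher, where 0.836% were. Below the median gene were 34 members, where 45.8% of all genes were, and 9 lay over 1.5-fold from the member median, where 35.9% of all genes did and 10.4% lay as far from the median gene. Against vehicle it was -0.46, with 9 members 2-fold lower, where 3.21% of all genes were, and 1 higher, where 2.19% were. The higher one was Fcgr3, at 1.43. Here 32 members lay below the median gene, where 47.2% of all genes did, and 11 over 1.5-fold from the member median, where 39.6% of all genes did and 14.4% lay as far from the median gene. Cd48 was at -2.18 and -2.40 in these comparisons, Marco at -1.45 and -1.63, Fcgr2b at -1.65 and -1.31, Fcgr1 at -1.27 and -1.45, and Ncf1 at -1.28 and -1.21. Clec7a was at -1.06 against the IL-1β dish and -0.40 against vehicle. The other 4 members counted as 2-fold lower against vehicle were Adgre1 at -1.05, Cybb at -1.002, Lst1 at -1.007 and Cx3cr1 at -1.16. In the other comparisons with iloprost they lay between -0.999 and -0.48. The second probe set of Cx3cr1 was past 2-fold lower in all 3, at -1.10 against the indomethacin dish, -1.36 against the IL-1β dish and -1.50 against vehicle. The indomethacin dish against vehicle had a member median of -0.10 and no member past 2-fold, where 0.204% of all genes were lower and 1.12% higher. Below the median gene were 27 members, where 53.3% of all genes were, and 3 lay over 1.5-fold from the member median, where 5.91% of all genes did. These were Clec7a at 0.73, Fcgr3 at 0.64 and Clec4n at 0.48.

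Other macrophage and monocyte genes were read from a list of 50, of which 45 had a probe set and 41 were above the floor on all arrays. With iloprost added their median ratio was -0.26, with 5 of 41 genes past 2-fold lower, 2 past 2-fold higher and 26 below the median gene. Over all genes these shares were 3.12%, 1.56% and 46.2%. The lower ones included Irf8, a transcription factor of the monocyte lineage, at -1.51, and Ptpn6, the inhibitory phosphatase SHP-1, at -1.41. Irf8 had signals of 57.6 in the iloprost dish, 163.1 in the indomethacin dish, 133.5 in the IL-1β dish and 105.2 with vehicle. The higher ones were Csf2rb, the shared β chain of the receptors for GM-CSF and IL-3, at 1.40, and Slc11a1, a metal transporter of phagosomes, at 1.10. Csf2rb had 182.3 in the iloprost dish, 68.9 in the indomethacin dish, 125.3 in the IL-1β dish and 39.4 with vehicle, and its IL-1β ratio was 1.44. For IL-1β against vehicle the list median was 0.00, with 1 of 41 at least 2-fold higher and 0 lower, where 1.35% and 0.498% of all genes were. For indomethacin added it was -0.07, with 0 past 2-fold, where 0.508% of all genes were lower and 0.261% higher.

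The fibroblast markers were centred near the median gene with iloprost added. Their median ratio was 0.04. None of the 24 passed 2-fold in either direction, and 10 were lower than the median gene. The ratios ran from -0.43 for Pdgfrb to 0.99 for Pdpn, which falls just short of the 2-fold call. Of all genes 3.12% were 2-fold lower, 1.56% 2-fold higher and 46.2% lower than the median gene, so these counts are near the background. Interferon-response genes, measured on the same arrays, had a median of -1.86, and all 24 above the floor were at least 2-fold lower with iloprost added. The macrophage members as a group lay between these lists. Whether the interferon-response genes or the share of macrophage RNA has a part in the ratios of single members was not tested.

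**Figure D4:**
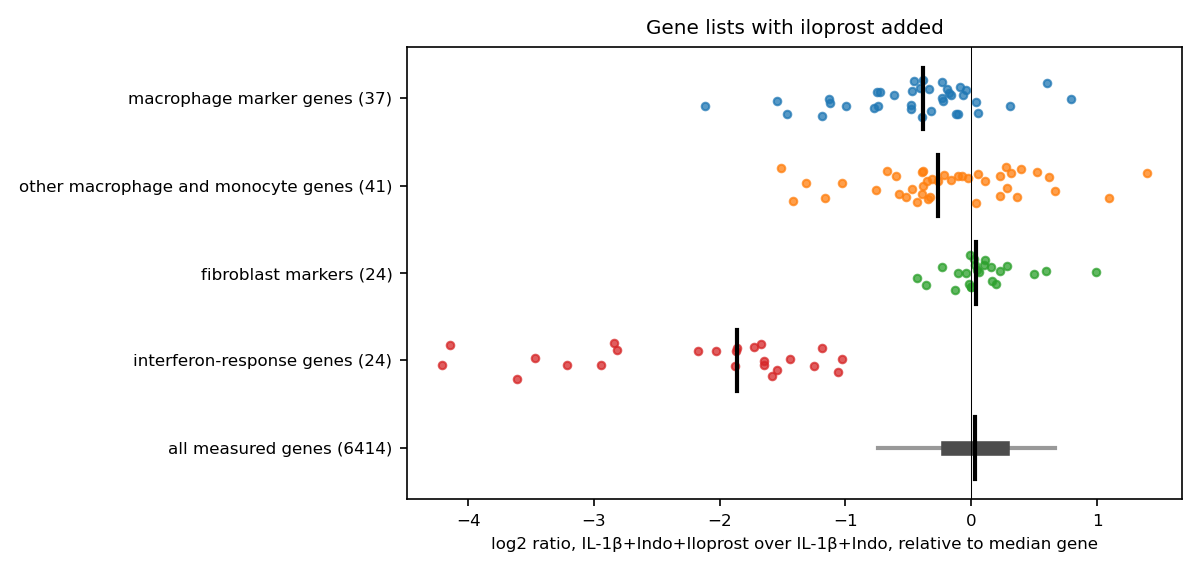
Log2 ratio relative to the median gene (x axis) of single genes in 4 lists, for IL-1β with indomethacin (Indo) and iloprost over IL-1β with indomethacin. Each point is a gene above the floor on all arrays, black bars are medians, and the lowest row shows the quartiles (thick) and the 5th to 95th percentiles (thin) of all 6414 measured genes. The medians are -0.38 for the macrophage marker genes, -0.26 for other macrophage genes, 0.04 for fibroblast markers and -1.86 for interferon-response genes.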

How the data were processed

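RNA of 4 dishes was measured on 1 Affymetrix GeneChip array each. Per the labels, labelling followed the manufacturer's standard protocol. The authors deposited a linear intensity for each probe set of each array. For the software, background correction and scaling behind it, the sources used here give nothing. All columns were used.

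Of 22690 probe sets, 20380 name exactly 1 gene in the platform's annotation after control probe sets were left out. Symbols were checked by gene number against RefSeq (GRCm38.p6), which changed 0. Signals below the floor of 37.6 were set to it, log2 was taken, and ratios were centred on the median of the 6222 genes that passed the floor everywhere. Background shares count genes above the floor on both arrays. The ratio step was tested on simulated data. Python 3.11.15, numpy 2.4.6 and pandas 2.3.3 were used.

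The members and lists were chosen with earlier results of these data known. Signals are given for members over 1.5-fold from the member median or the median gene in any comparison, and for the first 2 others per role in list order. Spi1 and Lyz1 are given besides, chosen after their values were seen. In total 8 alternatives were planned and 1 was added later. The planned comparison of Lyz1, Lyz2 and Fc receptor proteins was not run. The number of arrays limits the precision.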

Additional observations from a re-analysis of the deposited data

How the results depend on the processing

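No paired analysis was possible because each treatment has 1 array and no test was made. Of 162 recomputed medians and counts of the macrophage members, 156 stayed within the probe set SD (medians) or within 1.5 times (counts). Some of them could not change. The scale as deposited and that on the added control transcripts each move every gene alike, so the counts of gene-specific members stay fixed. On the scale as deposited, the median for IL-1β against vehicle was 0.14 in place of -0.08, and 1 member was 2-fold higher in place of 0. Scaled on the 18 added control transcripts, 3 members were 2-fold lower with iloprost added in place of 6, the median of the iloprost dish against the IL-1β dish was -0.17 and against vehicle -0.18, and 5 members were past 2-fold against vehicle in place of 10. With iloprost added, the median stayed between -0.41 and -0.19 under all 9 alternatives, and the gene-specific members numbered 8 to 10. The lowest number came with the floor at the 65th percentile, where 34 members were measured. Leaving out probe sets with the suffixes for shared probes, an alternative chosen after seeing the data, kept 32 members and gave a median of -0.39. The members lost were Clec4d, Aif1, Laptm5, Lyz1 and Trem2, which had no other kind of probe set above the floor. Of 891 recomputed ratios of the 19 members chosen by size, 824 moved by less than the probe set SD, 67 by more, and 0 of those past 1.5-fold changed sign. A median over probe sets, which was 1 alternative, returns the same ratio for a member with 1 probe set. Such ratios could not move. Signals near the floor limit Cd48, Cd84, Marco and the second probe set of Cx3cr1 in the iloprost dish. Outside the members they limit Csf2rb with vehicle, and Cd207 with vehicle and in the indomethacin dish.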

Other observations

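Some genes of related myeloid cells differed in the same dishes. Cd207, the 1 of 8 dendritic cell markers above the floor on all arrays, encodes langerin, a lectin of Langerhans cells. The ratio of the iloprost dish to the indomethacin dish was 3.53, with the signal in the indomethacin dish, 41, close to the floor. The dendritic cell markers Flt3 and Ccr7 were at the floor on every array. Of 8 osteoclast markers with a probe set, 5 were above the floor on all arrays, 1 on some and 2 on none. With iloprost added the median ratio of the 5 was 0.06. Past 2-fold higher was 1, where 1.56% of all genes were, and past 2-fold lower 0, where 3.12% were. Nfatc1, a transcription factor of osteoclast formation, had 166.1 in the iloprost dish, 78.3 in the indomethacin dish, 95.7 in the IL-1β dish and 102.6 with vehicle. Mmp9, a gelatinase, had 641.2 in the iloprost dish, 1255 in the indomethacin dish, 1167 in the IL-1β dish and 573 with vehicle. Ctsk, the collagen-degrading protease cathepsin K, and Acp5, an acid phosphatase of osteoclasts and some macrophages, were named after their values were seen. Ctsk had signals between 1145 and 1196 and Acp5 between 426.8 and 535.3 over the 4 dishes, each with an iloprost ratio of 0.06.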
